A study of Mus musculus with 37 samples.

Results

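Potassium channels and HCN channels were examined as 97 protein-coding genes, out of 48795 genes with counts in the hippocampus of Kdm1a-ifKO mice and their control littermates. The rule took every Kcn symbol made of subfamily letters and a number, together with the HCN genes. It left out 5 symbols of the same pattern that stand for antisense or overlapping RNAs, namely Kcnab3os, Kcnd3os, Kcnmb4os1, Kcnmb4os2 and Kcnq1ot1. The rule uses symbols and no measured value. Of the 97 genes, 82 passed the filter on low counts and were tested, as did 16799 genes in all.

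Kdm1a (LSD1) is a histone demethylase of lysine 4 of histone H3. The Kdm1a-ifKO mice carried Kdm1a f/f alleles and the tamoxifen-inducible recombinase Camk2a-creERT2, which is driven in the principal neurons of the forebrain. The controls carried no recombinase, and both genotypes received tamoxifen at 8 weeks of age and had the C57BL/6J background. RNA was taken from whole hippocampi of male mice, with 3 libraries per genotype and 1 mouse per library, and the age at sampling is not given in the sources used here. Interneurons, glia and vessels kept the gene, so that the change in principal neurons was measured in a mixture. In such tissue, fewer cells of a type and less RNA per cell cannot be told apart.

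Potassium channels let potassium leave the cell and thereby set the resting potential, end the action potential and space the spikes of a train. Most voltage-gated (Kv) channels are tetramers of alpha subunits of 1 subfamily, and silent alpha subunits, beta subunits and calcium-binding KChIP proteins alter their gating or their number at the membrane. Inward rectifiers and tandem pore (K2P) channels hold the resting potential, calcium-activated channels follow the spike, and HCN channels carry a depolarizing cation current that opens on hyperpolarization, for which the dendrites of hippocampal pyramidal neurons are known.

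The 6 libraries held between 18985542 and 19469947 counts. Kdm1a itself, measured over the whole gene, lay at 79.5, 81.1 and 79.6 CPM (counts per megacount of the library) in control replicates 1 to 3 and at 39.3, 36.9 and 38.4 CPM in Kdm1a-ifKO replicates 1 to 3. The groups were far apart, with a log2 fold change (log2FC, Kdm1a-ifKO minus control) of -1.07 ± 0.056 (SE of the fit, adjusted p = 6.24e-08). The first principal component of all genes held 50% of the variance and followed the genotype, and on the second (16.9%) 1 library of each genotype lay away from the rest, namely control replicate 3 and Kdm1a-ifKO replicate 2. The library sizes behind CPM were scaled by TMM, and TPM values are further divided by exon length.

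The level of the channel genes in control hippocampus ranged from no count in any library to 555 TPM. The highest was Kcnab2, the Kvβ2 subunit that binds Kv1 channels and aids their axonal transport, at 555 ± 19.4 TPM (SD, n = 3). Kcnip2 (KChIP2, a partner of Kv4) followed at 331 ± 17.1 TPM. Kcnj10 (Kir4.1, the glial inward rectifier that clears potassium) lay at 149 ± 9.80 TPM. None of these 3 overlapped with the next gene in the order in any control library.

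The next genes in that order could not be ranked among themselves. Hcn2 had 125 ± 8.02 TPM, Kcnip3 122 ± 12.0, Kcnk1 (a K2P channel) 120 ± 5.93, Kcnj9 (a GIRK subunit) 116 ± 6.64 and Kcnj4 111 ± 11.3, and each overlapped with the next of these over the control libraries. In all, 24 channel genes had at least 50 TPM in controls, 32 had 10 to 50 TPM, 20 had 1 to 10 TPM and 21 had under 1 TPM. All but 1 of the genes called below had at least 1 TPM in controls. Without the division by length, 5 of the 10 highest genes stayed among the 10 highest.

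**Figure D1:**
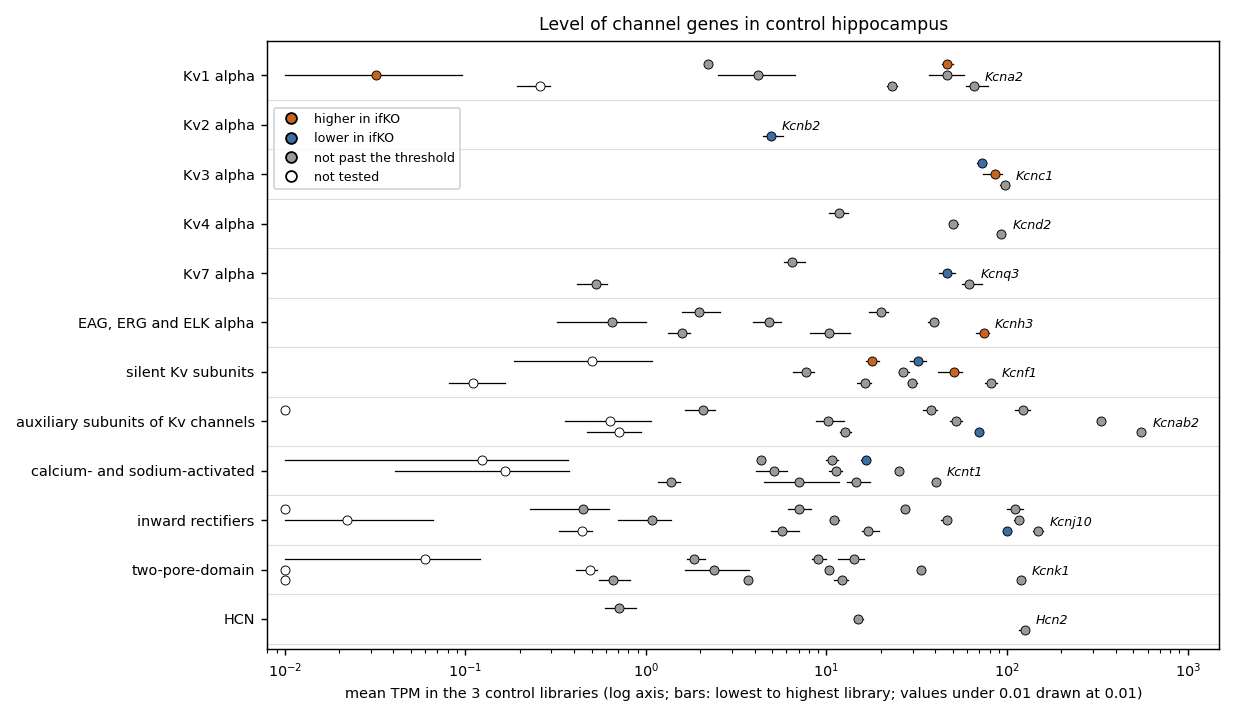
Mean TPM of channel genes in the 3 control libraries (horizontal log axis), by class (vertical axis), with bars from the lowest to the highest library, values under 0.01 drawn at 0.01, and the name of the highest plotted gene of each class. Kcnab2 and Kcnip2 lie highest, and the untested genes (open points) all lie under 1 TPM.

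After loss of Kdm1a, 6 of the 82 tested channel genes were higher (7.32%) and 8 were lower (9.76%) at an adjusted p under 0.05. Over all 16799 tested genes, 6.04% were higher and 2.82% were lower. The tested channel genes had a median control level of 27.2 CPM, against 18.4 CPM for all tested genes. The part of this level in the shares was not tested. The higher genes were Kcna7 (which passed the filter on low counts only through the Kdm1a-ifKO libraries), Kcns1, Kcnh3, Kcng1, Kcnc4 and Kcna6, and the lower ones included Kcnv1, Kcnab1, Kcnc2, Kcnj3, Kcnb2, Kcnn1 and Kcnq5. With a log2FC over 0.5 as well, 3 channel genes were higher (3.66%, against 3.15% of all tested genes), and with a log2FC under -0.5 only Kcnv1 was lower (1.22%, against 0.28%). At an unadjusted p under 0.05, 13 channel genes leaned higher and 13 lower. The share of all tested genes at this limit was not taken.

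The median log2FC of the 82 genes was -0.019, beside -0.0034 over all tested genes. The quartiles of the channel genes were -0.23 and 0.12, and those of all tested genes -0.13 and 0.14. Every Kdm1a-ifKO library lay above every control library in 12 channel genes (14.6%, against 15.7% of all tested genes) and below every control library in 16 (19.5%, against 14.4%). The median size of the log2FC, without its sign, was 0.162 for the channel genes and 0.131 for all tested genes.

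**Figure D2:**
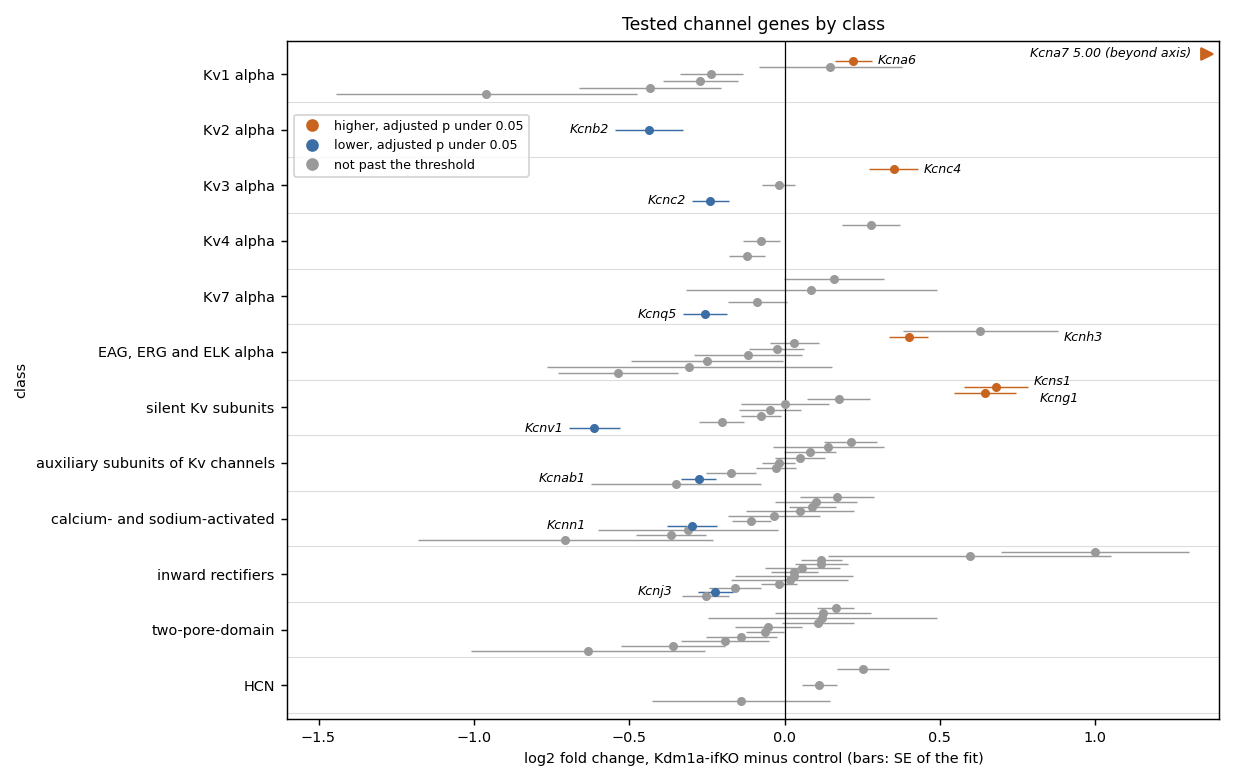
log2FC (Kdm1a-ifKO minus control, horizontal axis) of tested channel genes by class (vertical axis), with the SE of the fit as bars. The higher genes (orange) and lower genes (blue) are spread over the classes, and Kcna7 at 5.00 lies beyond the axis.

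Among the 4 genes of the Kv3 alpha subunits, which repolarize fast-spiking neurons, 1 rose and 1 fell. Kcnc4 (Kv3.4, on chromosome 3, 107438303 to 107459552) had 86.4, 83.2 and 68.4 CPM in control replicates 1 to 3 and 98.2, 104 and 101 CPM in Kdm1a-ifKO replicates 1 to 3. The groups did not overlap, and control replicate 3 was the lowest library. The log2FC was 0.35 ± 0.078 (adjusted p = 0.017).

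Kcnc2 (Kv3.2, best known from fast-spiking interneurons, on chromosome 10, 112271121 to 112467024) had 122, 131 and 137 CPM in controls and 113, 114 and 104 CPM in Kdm1a-ifKOs. All Kdm1a-ifKO libraries lay below the controls, with a log2FC of -0.24 ± 0.060 (adjusted p = 0.025). The summed level of the 6 interneuron markers overlapped between the groups, at 808 to 878 CPM in controls and 783 to 814 CPM in Kdm1a-ifKOs, although Vip fell (log2FC -0.46, adjusted p = 0.0122). Pvalb, the marker of fast-spiking interneurons, had 28.4, 27.1 and 28.7 CPM in controls and 23.7, 24.2 and 24.2 CPM in Kdm1a-ifKOs, without overlap and at a log2FC of -0.23 ± 0.067 (adjusted p = 0.0529), a value close to that of Kcnc2. Gad2 lay lower in all 3 Kdm1a-ifKO libraries as well, at -0.16 (adjusted p = 0.0599), and Gad1, Sst and Slc32a1 were at -0.093, 0.069 and -0.037. Pvalb and the last 4 were named after their values were seen. The part of interneurons in the change of Kcnc2 was not tested. Kcnc1, chosen after its values were seen, had a log2FC of -0.019 (adjusted p = 0.863).

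Of the 7 tested Kv1 alpha subunits, which control axonal spikes and their threshold, 2 were higher and none was lower in edgeR (1 at an unadjusted p under 0.05, and 1 by DESeq2). Kcna7 (Kv1.7, known from skeletal muscle and heart, on chromosome 7, 45405653 to 45409763) had 1 count in control replicate 1, none in control replicates 2 and 3, and 13, 15 and 17 counts in Kdm1a-ifKO replicates 1 to 3. The ratio of the summed counts, 45 against 1 and corrected for library size, was 43.6, with an exact 95% interval from 7.43 to 1759 that covers counting error only. The adjusted p was 0.000653 in edgeR, and DESeq2 gave no adjusted value. Kcna7 passed the filter on low counts only through the Kdm1a-ifKO libraries, so that it had to differ once tested, and the counts are the evidence rather than this call. The level reached in Kdm1a-ifKOs stayed low, at 1.41 ± 0.187 TPM (SD, n = 3).

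Kcna6 (Kv1.6, on chromosome 6, 126708329 to 126740674) had 74.5, 70.0 and 65.2 CPM in controls and 81.5, 82.4 and 80.5 CPM in Kdm1a-ifKOs. The groups were separated by a narrow gap, and the log2FC was 0.22 ± 0.059 (adjusted p = 0.0343). Kcna6 shares bases with the opposite-strand gene Gm26673, and the strand setting of the counting is not given in the sources used here. Kcna2, the most abundant Kv1 gene at 65.7 ± 11.1 TPM in controls, had a log2FC of -0.27 ± 0.121 (adjusted p = 0.226).

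Of the 8 tested silent subunits that join Kv2 channels 2 rose and 1 fell, and a Kv2 gene fell as well. Kcnb2 (Kv2.2, on chromosome 1, 15287254 to 15723750) had 16.8, 17.4 and 21.9 CPM in controls and 14.3, 14.6 and 12.5 CPM in Kdm1a-ifKOs, without overlap and with control replicate 3 as the highest library. Its log2FC was -0.44 ± 0.11 (adjusted p = 0.0261), and it overlaps 3 other annotated genes, Gm37138 and Gm38116 on its own strand and Gm25227 on the other.

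Silent subunits form no channel of their own and alter the Kv2 channels they join. Kcns1 (Kv9.1, on chromosome 2, 164163619 to 164171113) had 11.7, 13.4 and 11.3 CPM in controls and 18.6, 17.9 and 21.9 CPM in Kdm1a-ifKOs. All 3 Kdm1a-ifKO libraries were higher, by a log2FC of 0.68 ± 0.103 (adjusted p = 0.000979), or 60.2% above the control level. Kcng1 (Kv6.1, on chromosome 2, 168260117 to 168281736) had 63.6, 61.1 and 47.4 CPM in controls and 94.2, 88.4 and 86.7 CPM in Kdm1a-ifKOs. Again no library overlapped, and the log2FC was 0.65 ± 0.099 (adjusted p = 0.00367), or 1.56-fold.

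Kcnv1 (Kv8.1, which reduces the currents of Kv2 and Kv3 channels when expressed with them, on chromosome 15, 45106284 to 45114920) moved the other way. It had 36.2, 33.5 and 41.0 CPM in controls and 25.5, 23.9 and 23.2 CPM in Kdm1a-ifKOs. The lowest control was well above the highest Kdm1a-ifKO library, with a log2FC of -0.61 ± 0.081 (adjusted p = 0.000352), or 0.654 times the control level. The other tested silent subunits did not pass the threshold, with Kcnf1 (the most abundant at 81.1 ± 6.56 TPM) at a log2FC of -0.076 and Kcns2 at -0.20 (adjusted p = 0.104).

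**Figure D3:**
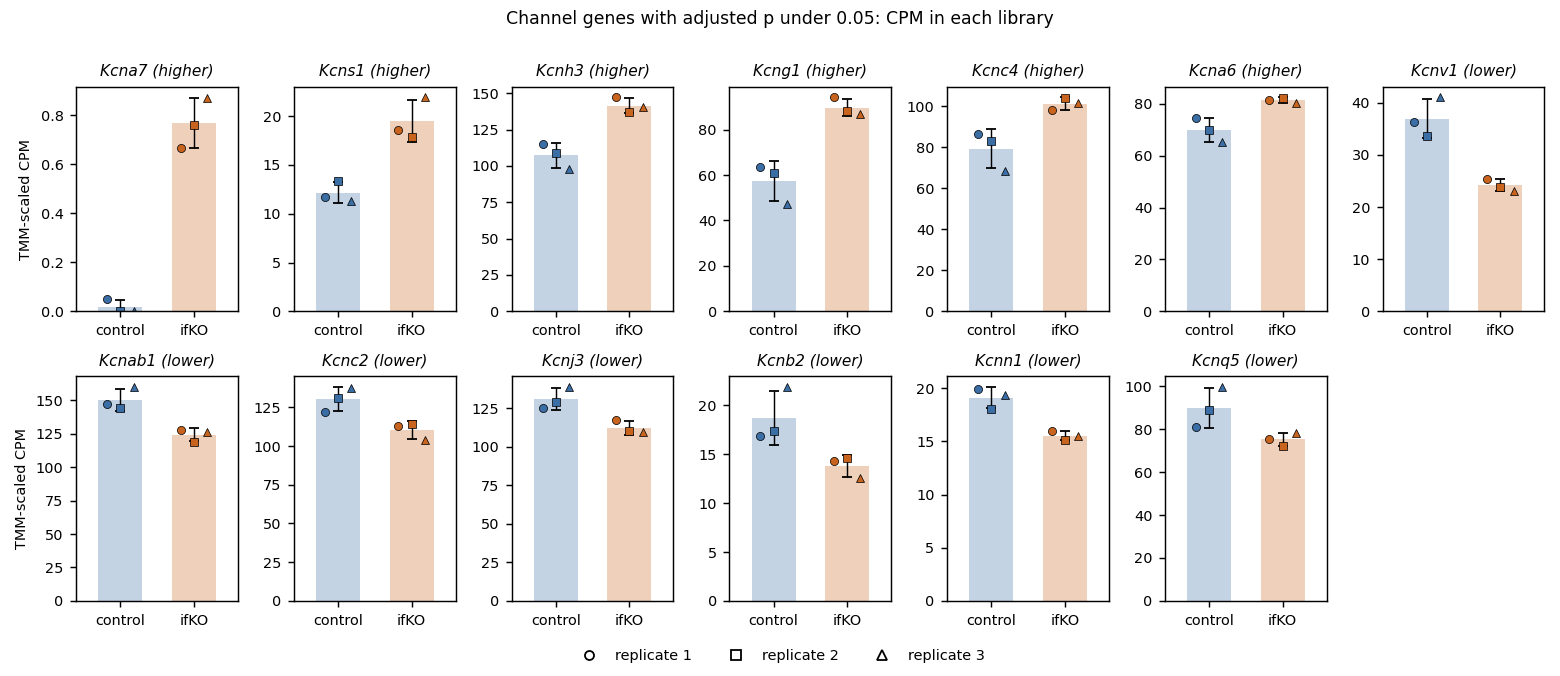
TMM-scaled CPM (vertical axes, from 0) of called channel genes in the 3 control (blue) and 3 Kdm1a-ifKO (orange) libraries, marked by replicate number, with the mean as a bar and the SD as an error bar. In each panel the groups do not overlap, and control replicate 3 (blue triangle) is often the control farthest from the Kdm1a-ifKO libraries, as in Kcng1 and Kcnb2.

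Of the 8 EAG, ERG and ELK subunits (Kcnh), Kcnh3 rose and none fell in edgeR (1 at an unadjusted p under 0.05, and 1 by DESeq2). Kcnh3 (Kv12.2, an ELK channel that opens below spike threshold and damps pyramidal neurons) lies on chromosome 15, 99224861 to 99242817. It had 115, 109 and 97.9 CPM in controls and 147, 137 and 140 CPM in Kdm1a-ifKOs, without overlap. The log2FC was 0.40 ± 0.062 (adjusted p = 0.00128), or 1.32-fold. Kcnh3 shares bases with Mcrs1 on the opposite strand. Kcnh6 had the largest log2FC of the subfamily, 0.63 ± 0.250, at a low level and without passing the threshold (adjusted p = 0.139).

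Of the 5 Kv7 genes, the M channels that restrain repetitive firing, only Kcnq5 (Kv7.5, on chromosome 1, 21398403 to 21961942) was called. It had 81.1, 88.7 and 99.5 CPM in controls and 75.6, 72.0 and 77.9 CPM in Kdm1a-ifKOs. The gap between the groups was small, with a log2FC of -0.26 ± 0.072 (adjusted p = 0.0434), and 4 other annotated genes overlap it. None of the 3 Kv4 genes, which carry the A-type current of dendrites, passed the threshold in edgeR as reported or in DESeq2, and 1 had an unadjusted p under 0.05. Kcnd2 had a log2FC of -0.12 (adjusted p = 0.227) and Kcnd1 of 0.28 (adjusted p = 0.0826). Kcnd1 was called higher in edgeR without a filter on low counts and without control replicate 2. Over all alternatives its adjusted p reached 0.277.

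Among the auxiliary subunits of Kv channels, 1 of the 9 tested was lower and none was higher in edgeR (1 at an unadjusted p under 0.05, none by DESeq2). Kcnab1 (Kvβ1, which gives Kv1 channels fast inactivation, on chromosome 3, 65109384 to 65378223) had 147, 144 and 160 CPM in controls and 128, 119 and 126 CPM in Kdm1a-ifKOs. The groups did not overlap, and the log2FC was -0.28 ± 0.056 (adjusted p = 0.00845), a decrease to 0.826 times the control level. Kcnab1 overlaps 3 other annotated genes. Kcnab2 was at a log2FC of -0.019 ± 0.053 and Kcnip2 at 0.083 ± 0.083, and the other KChIP genes Kcnip3 and Kcnip1 were at 0.050 and -0.17. Of the Kcne genes only Kcne4 and Kcne1l were tested, at -0.35 ± 0.274 and 0.14 ± 0.179.

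Of the HCN genes, the most abundant was Hcn2. It had a log2FC of 0.11 ± 0.057 (adjusted p = 0.247). Hcn3, chosen after its values were seen, had 14.7, 16.7 and 15.3 CPM in controls and 19.02, 18.8 and 17.9 CPM in Kdm1a-ifKOs (log2FC 0.25 ± 0.083, adjusted p = 0.0778). Pex5l (TRIP8b), the auxiliary subunit that traffics HCN channels, was at -0.14 (adjusted p = 0.597).

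Of the 12 tested inward rectifiers, 1 was lower and none was higher in edgeR (1 at an unadjusted p under 0.05, none by DESeq2). Kcnj3 (GIRK1, a channel opened by G protein βγ subunits of inhibitory receptors) lies on chromosome 2, 55435970 to 55598145. It had 125, 129 and 139 CPM in controls and 117, 110 and 110 CPM in Kdm1a-ifKOs, without overlap, at a log2FC of -0.22 ± 0.056 (adjusted p = 0.0252). Its partner Kcnj9 (GIRK3) had 126, 132 and 118 CPM in controls and 108, 115 and 92.4 CPM in Kdm1a-ifKOs, at -0.25 ± 0.077, without passing the threshold (adjusted p = 0.0645). It passed in DESeq2 (adjusted p = 0.0293), without a filter on low counts (0.00117), without Kdm1a-ifKO replicate 2 (0.0237) and without that library and control replicate 3 (0.00328), and over all alternatives the adjusted p reached 0.206. Kcnj14 had the largest log2FC of the subfamily, 1.00 ± 0.304 (adjusted p = 0.0585), at 1.08 TPM in controls. It had 15, 18 and 9 counts in controls and 33, 23 and 31 counts in Kdm1a-ifKOs, without overlap in CPM. Kcnj14 was called higher with upper-quartile normalization, without a filter on low counts and without Kdm1a-ifKO replicate 2. Over all alternatives its adjusted p reached 0.179.

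The class of calcium- and sodium-activated channels here also takes in the related gene Kcnu1 and the BK beta subunits. Of its 10 tested genes, Kcnn1 was lower and none was higher in edgeR (none at an unadjusted p under 0.05, and none by DESeq2). Kcnn1 (SK1, a small-conductance channel of the afterhyperpolarization) lies on chromosome 8, 70842049 to 70863258. It had 19.98, 18.0 and 19.3 CPM in controls and 16.0, 15.2 and 15.5 CPM in Kdm1a-ifKOs. The groups did not overlap, the log2FC was -0.30 ± 0.080 (adjusted p = 0.0368), and A230052G05Rik overlaps it on the opposite strand. DESeq2 did not call it (adjusted p = 0.109). Kcnn2, the most abundant SK gene, was at -0.11 ± 0.063 (adjusted p = 0.327), and Kcnt1, the most abundant of the class, at 0.10 ± 0.132. Among the other genes of the class, Kcnt2 was at -0.37 ± 0.114 (adjusted p = 0.0729), the BK beta subunits Kcnmb4 and Kcnmb1 at 0.17 ± 0.119 (adjusted p = 0.418) and -0.31 ± 0.291 (adjusted p = 0.556), and Kcnu1 at -0.034.

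The BK channel gene Kcnma1 had the largest log2FC of this class, and 1 library carried it. It had 20.4, 19.2 and 50.3 CPM in control replicates 1 to 3 and 19.02, 19.7 and 16.3 CPM in Kdm1a-ifKOs. Only control replicate 3 was high, and the groups overlapped. The log2FC was -0.71 ± 0.474 (adjusted p = 0.449), and -0.11 without control replicate 3 (adjusted p = 0.585). Kcnk9 (TASK3) had 5.44, 5.09 and 11.6 CPM in controls and 4.32, 6.14 and 3.75 CPM in Kdm1a-ifKOs, with the same library high. Its log2FC of -0.63 became -0.15 without control replicate 3. Kcna3 and Kcnh7, chosen after their values were seen, also had their highest level there, at 3.22 and 51.7 CPM, against at most 1.57 and 36.6 CPM in the other controls. Kcnh7, unlike Kcnma1, lay below every control in all 3 Kdm1a-ifKO libraries (31.0 and 36.6 CPM in control replicates 1 and 2, and 27.1, 29.0 and 26.1 CPM in Kdm1a-ifKOs). Its log2FC of -0.54 ± 0.192 did not pass the threshold (adjusted p = 0.157) but did without control replicate 3 (-0.30, adjusted p = 0.0413), without control replicate 1 (-0.69, adjusted p = 0.0246), without control replicate 3 and Kdm1a-ifKO replicate 2 together (-0.34, adjusted p = 0.0176) and in DESeq2 (-0.54, adjusted p = 0.00317), and over all alternatives its adjusted p ranged from 0.00317 to 0.368.

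None of the 10 tested K2P genes, the background channels, passed the threshold in edgeR or DESeq2, and 1 had an unadjusted p under 0.05. Kcnk1 was at a log2FC of -0.062 ± 0.061. Kcnk15 (TASK5), which did not pass the filter on low counts, was at 0 counts in all 3 controls and at 10, 7 and 9 counts in Kdm1a-ifKO replicates 1 to 3. Against the 3 counts that a total of 0 over the controls allows, it was at least 8.39-fold higher, with the counts, not a call, as the evidence. It entered the test when the filter was lowered to 10 counts over the libraries, only through the Kdm1a-ifKO libraries, and was then called higher.

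The other 14 untested genes had at most 18 counts in any library, and none was called in edgeR when the filter was lowered. Without a filter 13 of the 15 untested genes received an adjusted p, and with at least 10 summed counts 8 did, and Kcnk15 was the only one called in either. A change in the others was not detectable at this depth. Kcne1 and Kcnj1 had no count in any library, which allows up to 0.0528 CPM over the 3 controls together. Kcna10, Kcne2, Kcne3, Kcng3, Kcnj13, Kcnj15, Kcnk7, Kcnk16, Kcnk18, Kcnmb3, Kcnn4 and Kcnv2 had between 1 and 43 counts over the 6 libraries. Kcng3 had 17 of its 36 counts in control replicate 3, and Kcnn4 18 of its 43 in Kdm1a-ifKO replicate 2.

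The calls rested on single libraries to different degrees. The number of lower genes fell from 8 to 5 without control replicate 2 or control replicate 3, to 3 without Kdm1a-ifKO replicate 1 and to 2 without Kdm1a-ifKO replicate 3. Over all tested genes, the lower calls fell in the same fits from 473 to 364 and 340, to 164 and to 137. Control replicate 3 was the control farthest from the Kdm1a-ifKO mean, in the direction of the change, in 12 of the 14 called genes (85.7%; controls 2 and 3 tied at 0 for Kcna7), in 50 of the 82 tested channel genes (61.0%) and in 46.4% of all tested genes. It was farthest in 87.5% of the lower channel genes, against 67.9% of all genes called lower. Among the higher ones it was farthest in 83.3%, against 45.9% of all genes called higher. Kcnv1, Kcnab1, Kcns1, Kcng1, Kcnh3 and Kcna7 stayed past the threshold whichever single library was left out. For Kcna7 this is no support, because it entered the test only through the Kdm1a-ifKO libraries. The other 8 each lost the call at least once. Kcnc4 was lost without Kdm1a-ifKO replicate 2 or 3 (log2FC 0.33 to 0.35, adjusted p up to 0.069).

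Kcnc2, Kcnb2 and Kcnj3 each lost the call without 3 of the 6 libraries. For Kcnc2 these were control replicate 2 and Kdm1a-ifKO replicates 1 and 3 (log2FC -0.26 to -0.20, adjusted p up to 0.124). For Kcnb2 they were control replicate 3 and Kdm1a-ifKO replicates 1 and 3 (log2FC -0.46 to -0.31, adjusted p up to 0.0954), and for Kcnj3 control replicate 2 and Kdm1a-ifKO replicates 2 and 3 (log2FC -0.24 to -0.21, adjusted p up to 0.112). Kcna6 and Kcnq5 kept the call only without control replicate 1, and Kcnn1 only without control replicate 2. Otherwise their adjusted p reached 0.102, 0.12 and 0.104, at a log2FC of 0.18 to 0.23, -0.28 to -0.17 and -0.32 to -0.26. No called gene changed direction in any of these fits. Without control replicate 3 and Kdm1a-ifKO replicate 2 together, 6 channel genes were higher and 8 lower, of which 5 and 5 were among the genes called with all libraries. Over all genes, 1039 were then higher and 560 lower.

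**Figure D4:**
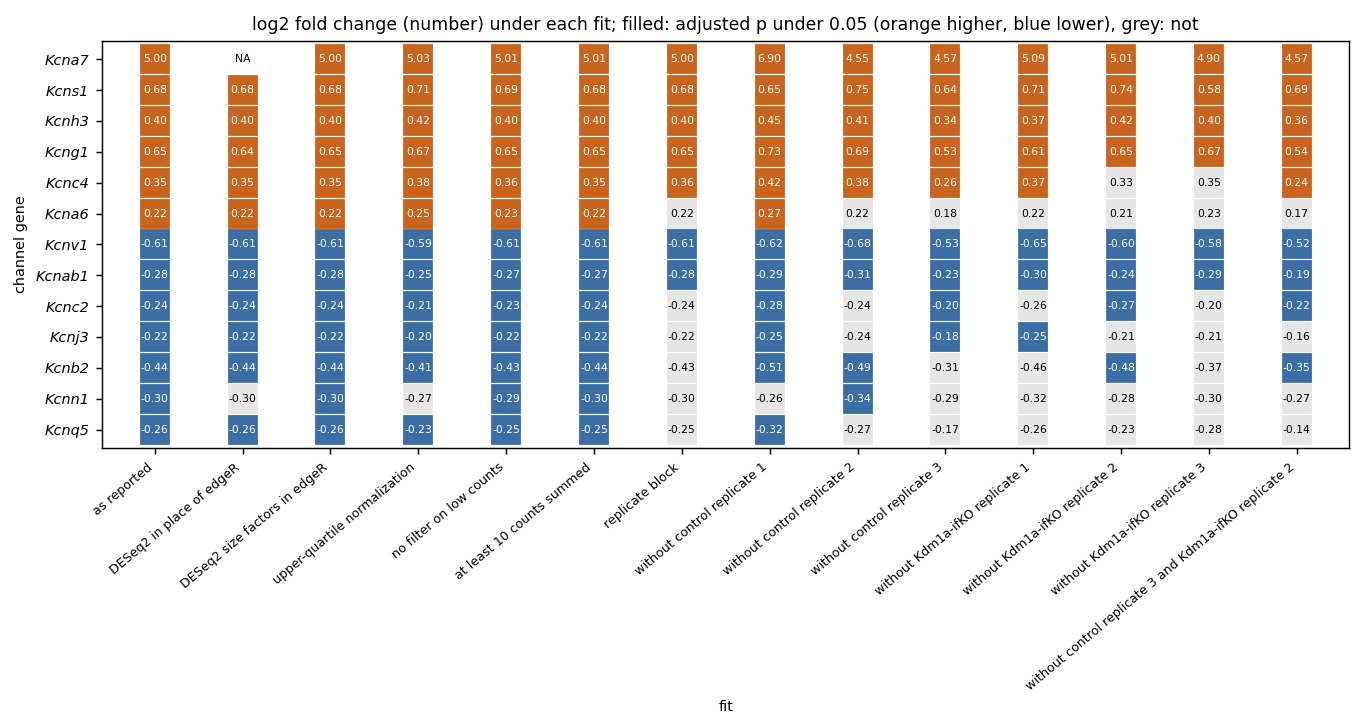
log2FC (printed numbers) of called channel genes (vertical axis) under each fit (horizontal axis). A filled square marks an adjusted p under 0.05, and the rows of Kcns1, Kcnh3, Kcng1, Kcnv1 and Kcnab1 are filled in every fit. The row of Kcna7 is filled in every fit that gave an adjusted p (DESeq2 gave none). For Kcna7 this is no support, because it entered the test only through the Kdm1a-ifKO libraries.

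Proteins that anchor, traffic or modulate these channels were taken as a list of 29 partner genes, of which 28 were tested, 1 was higher (3.57%, against 6.04% of all tested genes) and 3 were lower (10.7%, against 2.82%), with a median log2FC of -0.094. Cntnap2 (Caspr2, which gathers Kv1 channels beside the node of Ranvier) had 122, 118 and 141 CPM in controls and 99.7, 102 and 100 CPM in Kdm1a-ifKOs. Every Kdm1a-ifKO library was lower, at a log2FC of -0.34 ± 0.065 (adjusted p = 0.00556). Adam23, a receptor for LGI proteins at Kv1-bearing axons, was lower by a log2FC of -0.18 ± 0.052 (adjusted p = 0.0462). Calm2, a gene for calmodulin, which binds Kv7 and SK channels, was at -0.21 ± 0.051 (adjusted p = 0.0205). Abcc8 (SUR1, the regulatory subunit of the KATP channel) had 72.5, 68.5 and 65.8 CPM in controls and 88.4, 75.3 and 89.1 CPM in Kdm1a-ifKOs (log2FC 0.29 ± 0.070, adjusted p = 0.0218). Without 1 library the count of lower partners fell to 1 (control replicate 2, Kdm1a-ifKO replicate 2 or 3), and Abcc8 was no longer past the threshold (control replicate 2 or 3, Kdm1a-ifKO replicate 1 or 3). Its pore subunit Kcnj11, named here after its values were seen, had a log2FC of 0.12 (adjusted p = 0.299).

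Markers of the cell types in the tissue were set beside these values. Of 76 markers, 10 were higher (13.2%, against 6.04% of all tested genes) and 2 lower (2.63%, against 2.82%). Of these 12 calls, 5 (Map3k15, Kl, Prkcd, Pdgfrb and Neurod6) stayed past the threshold whichever single library was left out. The summed markers of microglia lay at 323 to 353 CPM in controls and 370 to 474 CPM in Kdm1a-ifKOs, with Cx3cr1, Tmem119 and Csf1r higher by a log2FC of 0.27, 0.42 and 0.33, calls that were lost without 4, 4 and 5 of the 6 libraries in turn. Those of astrocytes lay at 1638 to 1781 and 1920 to 2118 CPM, with Slc1a3, 1 of the 6 markers, higher by 0.22 (lost without 4 of the 6 libraries in turn). The groups did not overlap in either list, nor in those of CA2 neurons, dentate granule neurons, choroid plexus and thalamus, where Map3k15 (1.70), Cacng5 (0.50), C1ql2 (0.55), Kl (1.28) and Prkcd (0.57) were the called markers. In an alternative chosen after seeing the data, the sums were taken without the markers called higher. Those of microglia, astrocytes and CA2 neurons still did not overlap, while those of dentate granule neurons, choroid plexus and thalamus did. The choroid plexus sum rested on Kl: the other 6 markers summed to 40.2, 16.6 and 13 CPM in controls and to 8.9, 12.1 and 14.7 CPM in Kdm1a-ifKOs, with Ttr at a log2FC of -1.49 (adjusted p = 0.337) and Clic6 at -0.85 (adjusted p = 0.202). The thalamus sum rested on Prkcd, with Rora at -0.30 (adjusted p = 0.2). Pdgfrb, 1 of the 6 markers of pericytes and smooth muscle, was higher by 0.39, while Rgs5 of the same list was at -0.023. The sum of that list overlapped, at 257 to 263 CPM in controls and 256, 369 and 258 CPM in Kdm1a-ifKO replicates 1 to 3. Neurod6, a marker of excitatory neurons, was lower by a log2FC of -0.36. The summed markers of CA1, of excitatory neurons and of oligodendrocytes overlapped between the groups. No marker was at 0, and the part of the cell mixture in the channel results was not tested.

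Channel genes of glia and choroid plexus were read for comparison, after their values were seen. Kcnj10 had 215, 189 and 204 CPM in controls and 191, 200 and 210 CPM in Kdm1a-ifKOs, with overlap and a log2FC of -0.018 ± 0.059, while the summed astrocyte markers were higher and 1 of the 6 was called. Kcnk13 (THIK1, a microglial K2P channel) had 8.16, 8.40 and 7.79 CPM in controls and 8.12, 8.38 and 9.76 CPM in Kdm1a-ifKOs (log2FC 0.11, adjusted p = 0.618), while 3 of the 6 microglial markers were called higher. Kcne2 and Kcnj13, which choroid plexus epithelium expresses, had 3, 9 and 4 and 3, 2 and 3 counts in controls and 4, 1 and 2 and 1, 12 and 2 counts in Kdm1a-ifKOs, without a shared direction.

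**Figure D5:**
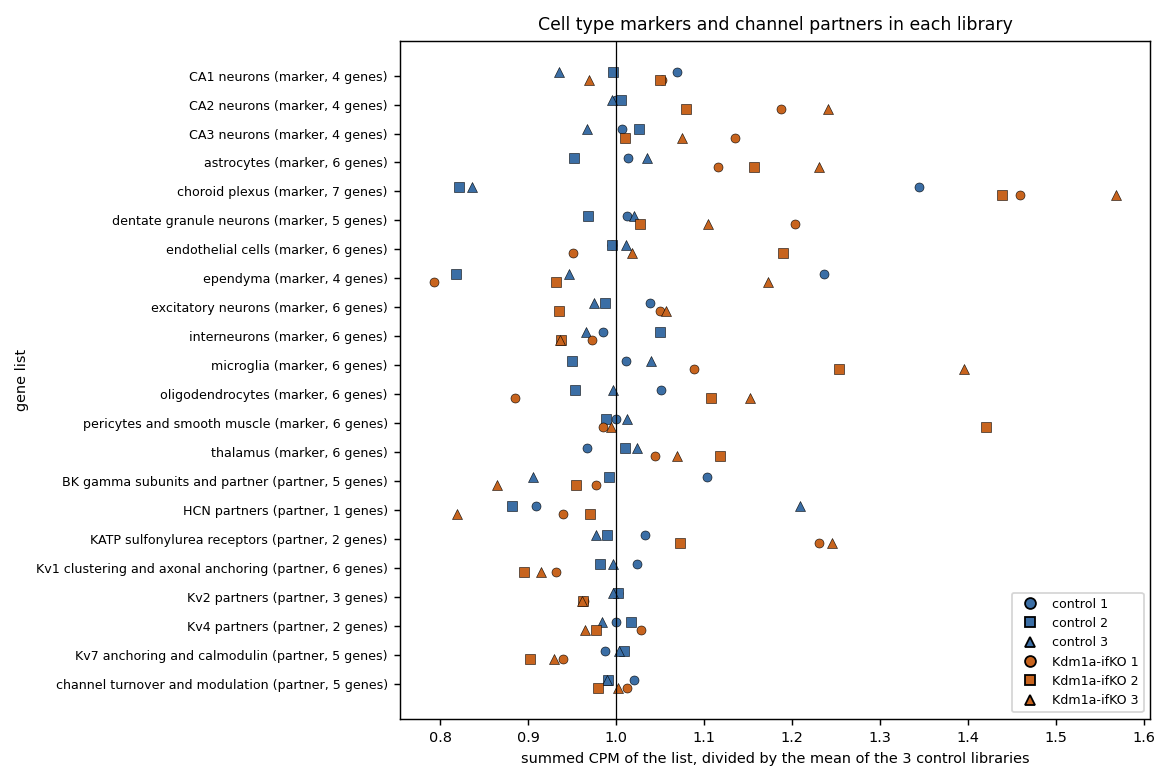
Summed CPM of each list of markers and partners, divided by the mean of the 3 control libraries (horizontal axis), for each library (points) and list (vertical axis). In all 3 Kdm1a-ifKO libraries the markers of microglia, astrocytes, CA2, dentate granule neurons, choroid plexus and thalamus and the KATP list lie above the controls (for choroid plexus and thalamus through Kl and Prkcd), and the Kv1, Kv2 and Kv7 partner lists lie below them.

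Several channel genes lie close together. Kcna6 rose while Kcna1, whose start lies 94.3 kb away, was at a log2FC of -0.43 ± 0.229 (adjusted p = 0.331), and Kcna5, at 111 kb from Kcna1, was at 0.15. Kcnj9 and Kcnj10, whose starts are 11.9 kb apart, were at -0.25 and -0.018. Kcna1 and Kcna5 were chosen after their values were seen.

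CTCF ChIA-PET, which counts paired-end tags (PETs) between DNA sites bound by CTCF, was available as 1 library of sorted nuclei of hippocampal excitatory neurons. The mice, which the paper calls WT, carried the recombinase Camk2a-creERT2 and the nuclear GFP reporter CAG-Sun1/sfGFP. They were taken 1 month after tamoxifen, and thus differ from the RNA-seq controls, which carried no recombinase. It holds 27786 loops of at least 3 PETs, and no genotypes can be compared. A loop anchor lay within 10 kb of the gene body for 52 of the 82 tested channel genes (63.4%) and for 56.9% of all tested genes with an annotation. Of the called genes, all 6 higher ones and 4 of the 8 lower ones had such an anchor. With loops of at least 10 PETs these were 3 of 6 and 3 of 8, beside 35.4% of all tested genes.

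Kcng1 had 14 loops, of which the strongest had 66 PETs, and Kcnc4 had 9 with up to 76 PETs. Kcnn1 had 29 loops with up to 63 PETs, the most of the called genes. Kcna7 had 8 loops with up to 9 PETs, Kcns1 had 2 with up to 6, and none came near Kcnv1, Kcnc2 or Kcnj3. The strongest loop near Kcna6 joined its downstream side to a site 139.5 kb away with 174 PETs. Some loops joined neighbouring channel genes. Anchors within 10 kb of Kcna1 and Kcna6 were linked by up to 24 PETs (chromosome 6, 126641783 to 126645245 and 126703592 to 126706877), those of Kcna2 and Kcna10 by up to 92 PETs, and those of Kcnj9 and Kcnj10 by 8 PETs. A loop of 4 PETs further joined Kcna10 with Kcnc4.

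Promoters, taken from RefSeq (GRCm38.p6) as 250 bases before to 50 after the start of transcription, were matched for 70 of the 97 channel genes and for 9 of the 14 called ones, which had 16 promoters. An anchor overlapped 2 of these 16, at Kcna7 and at Kcnn1, and 9.5% of all promoters in the table. These 2 are shown because the ChIA-PET data touch them, with that of Kcns1, a higher gene without an anchor at its start. Capitals mark each CG dinucleotide. The promoter of Kcna7 is chr7:45405710-45406009 on the plus strand, that of Kcnn1 is chr8:70856959-70857258 on the minus strand, and that of Kcns1 is chr2:164171064-164171363 on the minus strand.
Kcna7: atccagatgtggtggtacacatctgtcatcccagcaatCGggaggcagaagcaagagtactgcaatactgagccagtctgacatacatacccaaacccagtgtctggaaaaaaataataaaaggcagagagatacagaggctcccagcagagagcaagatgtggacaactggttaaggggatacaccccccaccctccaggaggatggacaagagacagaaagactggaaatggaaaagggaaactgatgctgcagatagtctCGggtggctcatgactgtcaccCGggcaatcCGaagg
Kcnn1: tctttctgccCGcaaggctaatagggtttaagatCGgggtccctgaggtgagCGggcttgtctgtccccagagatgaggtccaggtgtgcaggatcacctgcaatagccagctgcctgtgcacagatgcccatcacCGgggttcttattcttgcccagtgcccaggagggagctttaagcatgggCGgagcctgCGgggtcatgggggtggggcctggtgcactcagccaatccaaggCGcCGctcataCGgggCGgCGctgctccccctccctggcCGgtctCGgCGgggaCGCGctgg
Kcns1: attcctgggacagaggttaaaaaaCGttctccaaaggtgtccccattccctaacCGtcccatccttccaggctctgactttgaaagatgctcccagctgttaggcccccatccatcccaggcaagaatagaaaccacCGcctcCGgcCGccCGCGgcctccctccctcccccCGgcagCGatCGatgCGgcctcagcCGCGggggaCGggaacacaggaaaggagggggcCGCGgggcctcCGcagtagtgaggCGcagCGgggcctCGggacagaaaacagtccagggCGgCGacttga

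The promoter of the gene that was nearly silent in controls, Kcna7, held 4 CG dinucleotides and 50.3% G and C, a CpG ratio (observed over expected) of 0.21. That of Kcnn1 held 16 CGs with 64.3% G and C, and that of Kcns1 22 CGs with 64%. The 16 promoters of called genes had a median of 55.3% G and C and a CpG ratio of 0.33, beside 58.3% and 0.43 for all 95 channel gene promoters and 52.7% and 0.38 for all 32851 promoters. Both parts of the REST site, TTCAGCACC and GGACAGNGC, were searched on both strands together with GCGCGC. None of the 3 was found in the promoters of called genes, while 0.371%, 1.91% and 13.6% of all promoters held them. The absence says only that these letters are not in these windows.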

How the data were processed

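RNA-seq of the hippocampus was analysed for 3 control and 3 Kdm1a-ifKO libraries, grouped by the genotype in the labels. The counts per gene were deposited by the authors as raw counts, made from single-end reads trimmed with cutadapt 1.18, aligned to mm10 with HISAT2 2.1.0 and counted with HTSeq 0.11.1. The loops of the CTCF ChIA-PET library were deposited by the authors with the count of PETs per loop, and only loops whose anchors both held a CTCF peak were kept by them. Other assays of the series were not used here.

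Symbols, positions and exon lengths came from GENCODE M21 (GRCm38), which matched 48349 of 48795 gene identifiers (99.09%). Counts were filtered (filterByExpr), scaled by TMM and tested with the quasi-likelihood F test of edgeR 4.0.16 in R 4.3.3, with genotype as the only factor, and p-values were adjusted (Benjamini-Hochberg) over all tested genes. The test was first tested on simulated data. DESeq2 1.42.0, other scalings, filters and blocks and leaving out libraries were alternatives. Libraries held 18985542 to 19469947 counts, and intervals and floors cover counting error only. With 3 against 3 libraries, each p-value sets the difference between genotypes against the spread between these animals, estimated with the help of all genes.

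Channel genes, lists and tests were chosen with earlier results of these data known. Named were all called channel genes, the most abundant and most changed tested gene of each subfamily, the 10 highest by TPM, all untested channel genes, called partners and markers, and Kdm1a. Others are said to be chosen after their values were seen. Some of these genes are not reported here. Positions count from 1 on GRCm38.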

Additional observations from a re-analysis of the deposited data

How the results depend on the processing

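Depth limited the 15 untested channel genes, of which 13 received an adjusted p without a filter. The cause of the shifts below was not tested beyond what each alternative changes. Without a filter on low counts, 10 channel genes were higher and 12 lower, and 6 partner genes were lower instead of 3. Over all genes, 1447 were then higher and 1090 lower, against 1014 and 473 as reported. DESeq2 called 5 higher and 10 lower, and DESeq2 size factors in edgeR 6 and 8. Over all genes, these fits called 872 and 524, and 1016 and 483. A log2FC past 0.5 left 3 higher and 1 lower (3.66% and 1.22%, against 3.15% and 0.28% of all tested genes). Past 1 it left 1 higher and 0 lower (8 lower in edgeR without this limit, 13 at an unadjusted p under 0.05, 10 by DESeq2). That higher gene was Kcna7, which entered the test only through the Kdm1a-ifKO libraries, so that its call is no support. The share of all tested genes past 1 was not taken. With 1 library left out, 646 to 876 of all tested genes were higher and 137 to 584 lower. In the same fits, 4 to 6 channel genes were higher and 2 to 9 lower, and 0 to 1 partner genes were higher and 1 to 3 lower. The median log2FC of the channel genes then ran from -0.0321 to 0.0064. That median (-0.0191 as reported) was 0.0061 with upper-quartile normalization, which moved the median of all genes to 0.0224, and -0.0498 without control replicate 3 and Kdm1a-ifKO replicate 2. Ordered by CPM, 5 of the 10 highest channel genes by TPM stayed among the 10 highest. The count of tested channel genes with a loop anchor (52) ranged from 39 to 61.

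Replicate numbers did not pair the samples: same-numbered libraries of the 2 genotypes had correlations of their deviations of -0.033, -0.091 and -0.148, and the highest correlation was that of control replicate 3 with Kdm1a-ifKO replicate 2 (0.162), the 2 libraries apart on the second principal component. With the replicate block, 5 channel genes were higher and 4 lower, and 1 partner gene was lower. Over all genes, 797 were higher and 249 lower with it. Kcnj9 was called lower with the block (adjusted p = 0.0293).

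Of the named genes, none of them called, 8 had a log2FC that changed sign in at least 1 alternative. With upper-quartile normalization, Kcnab2 was at 0.0063 and Kcnj10 at 0.0080. With 1 library left out, or control replicate 3 and Kdm1a-ifKO replicate 2 together, Kcnab2 ran from -0.047 to 0.0242, Kcnj10 from -0.0705 to 0.0275, Kcnip2 from -0.0066 to 0.1727, Kcnip3 from -0.0784 to 0.126, Kcnt1 from -0.0740 to 0.1811, Kcne1l from -0.0156 to 0.3166, Kcnu1 from -0.0662 to 0.0028 and Kcnj4 from -0.0062 to 0.194.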
